A study of Mus musculus with 8 samples.

Results

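Interferon-stimulated genes are the genes that a cell switches on when type I interferon binds its receptor. The set described here holds 31 mouse genes, chosen by name, and all 31 were found among the 54838 gene rows of the count tables through their GENCODE vM21 symbols. They were measured by sequencing of polyadenylated RNA from mouse embryonic fibroblasts, which are connective tissue cells cultured from embryos, in 8 libraries that form 4 groups of 2. No genotype or strain is given in the sources used here, and the labels name 1 cell source for all groups. Proliferating cells were the first group. The other 3 were senescent (n-Sen): the cells were stopped in G2 by RO3306, an inhibitor of CDK1, given nutlin3a for 48 h, which frees p53 from MDM2, and then grown for 14 days with 100 nM of the PLK1 inhibitor BI-2536 to remove dividing cells. One group carries the label n-Sen alone, and the n-Sen control and n-Sen alkali groups spent a further 24 h in HEPES-buffered medium whose pH was set to a control or an alkaline value; the labels give no pH. Whether the n-Sen group spent time in such medium is not stated. Library totals ran from 40608517 to 54183060 counts, and levels are given as CPM, in which counts are divided by a library size normalised by TMM over all 8 libraries and put on a common scale. The labels do not name separate cultures, so p-values measure the spread between these samples only, which may be technical.

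As background, interferon beta is the ligand that fibroblasts release when they sense foreign or misplaced nucleic acid. It binds a receptor made of Ifnar1 and Ifnar2, the kinases Jak1 and Tyk2 phosphorylate Stat2, and it joins Irf9 in the factor ISGF3. ISGF3 binds the interferon-stimulated response element (ISRE) in promoters and raises antiviral effectors, among them the IFIT, OAS, Mx and GBP families. In senescent fibroblasts this response is known as a late part of the secretory phenotype, tied to DNA in the cytosol.

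The ISRE was searched as GAAANNGAAA and its reverse complement TTTCNNTTTC in RefSeq promoters of GRCm38.p6, the build also called mm10, from 250 bases before to 50 bases after each gene's start. It was present for 11 of the 23 members in that table (47.8%) and for 3.99% of 27025 genes. The interferon gamma element GAS, searched as TTCNNNGAA, which is its own reverse complement, was present for 6 of the 23 (26.1%) and for 9.55% of all genes. Matches of the 2 motifs overlapped in the Bst2 promoter. A match is a description of letters and not of binding. The windows below hold the ISRE matches, in capitals, of members that the comparisons turn on. They are shown because they hold the element in single, spaced and tandem forms. Other members that differed between groups, Ifit2, Irf9 and Ifi35 among them, had no match in this window.
Ifit1, chr19:34640775-34640834, plus strand: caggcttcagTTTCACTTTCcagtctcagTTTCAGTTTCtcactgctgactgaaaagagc
Ifit3, chr19:34583363-34583422, plus strand: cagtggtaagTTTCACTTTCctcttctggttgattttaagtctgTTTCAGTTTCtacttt
Ifit3b, chr19:34607759-34607818, plus strand: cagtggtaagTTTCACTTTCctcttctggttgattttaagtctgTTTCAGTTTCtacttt
Isg15, chr4:156200847-156200906, minus strand: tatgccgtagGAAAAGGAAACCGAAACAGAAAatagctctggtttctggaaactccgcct
Bst2, chr8:71537553-71537612, minus strand: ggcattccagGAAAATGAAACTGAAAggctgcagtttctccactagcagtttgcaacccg
Oas1a, chr5:120907526-120907555, minus strand: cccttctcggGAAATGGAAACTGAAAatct
Gbp2, chr3:142620594-142620653, plus strand: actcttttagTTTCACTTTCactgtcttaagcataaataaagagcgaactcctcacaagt
Gbp3, chr3:142559989-142560043, plus strand: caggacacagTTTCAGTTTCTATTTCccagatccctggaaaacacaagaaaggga
Stat2, chr10:128270266-128270325, plus strand: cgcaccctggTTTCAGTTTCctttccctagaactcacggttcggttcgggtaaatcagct

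The windows of Ifit3 and Ifit3b were identical over all 60 bases, with matches at positions -156 and -122 from the start of Ifit3 and -188 and -154 from that of Ifit3b. Isg15 held 3 overlapping matches, and Bst2, Oas1a and Gbp3 held 2 each. Of the 11 members with a match, 7 were called higher in n-Sen than in proliferating cells, 2 were not called and 2 were not tested, where 34.0% of all genes tested were called higher. Of the 12 members of the table without one, 7 were called higher, 4 were not called and 1 was not tested. Among those called higher, Ifit3b, Oas1a and Gbp3, with a match, and Oasl2, Xaf1 and Ifi44, without one, had few counts in proliferating cells. They entered the test through their n-Sen level, so these counts do not support a direction. With alkaline medium, 4 of the 11 (Ifit3, Bst2, Gbp2 and Stat2) and 1 of the 12 (Ifit2) were called lower, where 10.4% of all genes tested were. Whether members with and without a match differ was not tested.

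The first comparison, n-Sen against proliferating cells, asks which members differ once cells have gone through nutlin3a and the long culture that followed. The drugs, the culture time and the senescent state cannot be told apart in it. Of the 31 members, 24 had enough counts to be tested, and 17 of these were called higher and none lower at an adjusted p under 0.05 (quasi-likelihood test of edgeR, adjusted by Benjamini-Hochberg over all 19264 genes tested). Over all genes, 34.0% were called higher and 33.1% lower. No member with a negative fold change had an unadjusted p under 0.05, and DESeq2 called 13 members higher and 0 lower, with no adjusted p for 2. The median log2 fold change of the tested members was 1.58, against 0.001 over all genes tested. In 8 of the 24 tested members the proliferating libraries alone would not have passed the filter on low counts. These were Ifit3b, Oas1a, Oas2, Oasl2, Gbp3, Cmpk2, Xaf1 and Ifi44. They entered the test through their n-Sen level, so the count and median describe the set without supporting a direction. The libraries hold markers of another cell type that moved with this comparison. All 19 tested macrophage markers of 20 were called higher, with a median log2 fold change of 4.27, and their summed level went from 62.8 and 71.3 CPM in proliferating cells to between 1385 and 1477 CPM in the n-Sen libraries. Of that list, Cd163 alone had no count in either n-Sen library. Macrophages express many interferon-stimulated genes, and the part of these markers' cells in the members' levels was not tested. In bulk RNA, fewer cells of a type and less RNA per cell cannot be told apart. A list of 8 lymphocyte markers summed to at most 0.363 CPM in any library. Of these the T cell markers Cd3e and Cd3g and the B cell marker Ms4a1 were at 0 in all 8 libraries, and the B cell marker Cd79a was above 0 in all 8, at up to 0.333 CPM. Of 6 dendritic cell markers 2 were tested. Xcr1 was called higher in n-Sen, with a log2 fold change of 3.42, and Zbtb46 was not called, while Siglech was at 0 in proliferating and n-Sen libraries. All 10 fibroblast markers were called, 7 higher and 3 lower, with Lum at 3.44 and Col3a1 at 2.60 but Pdgfra at -3.17 and Fbln1 at -3.67. Their sum, 11350 and 11630 CPM in proliferating cells and 17490 and 17690 CPM in the n-Sen libraries, did not overlap between the groups. The part of these lists in the members' change was not tested either.

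**Figure D1:**
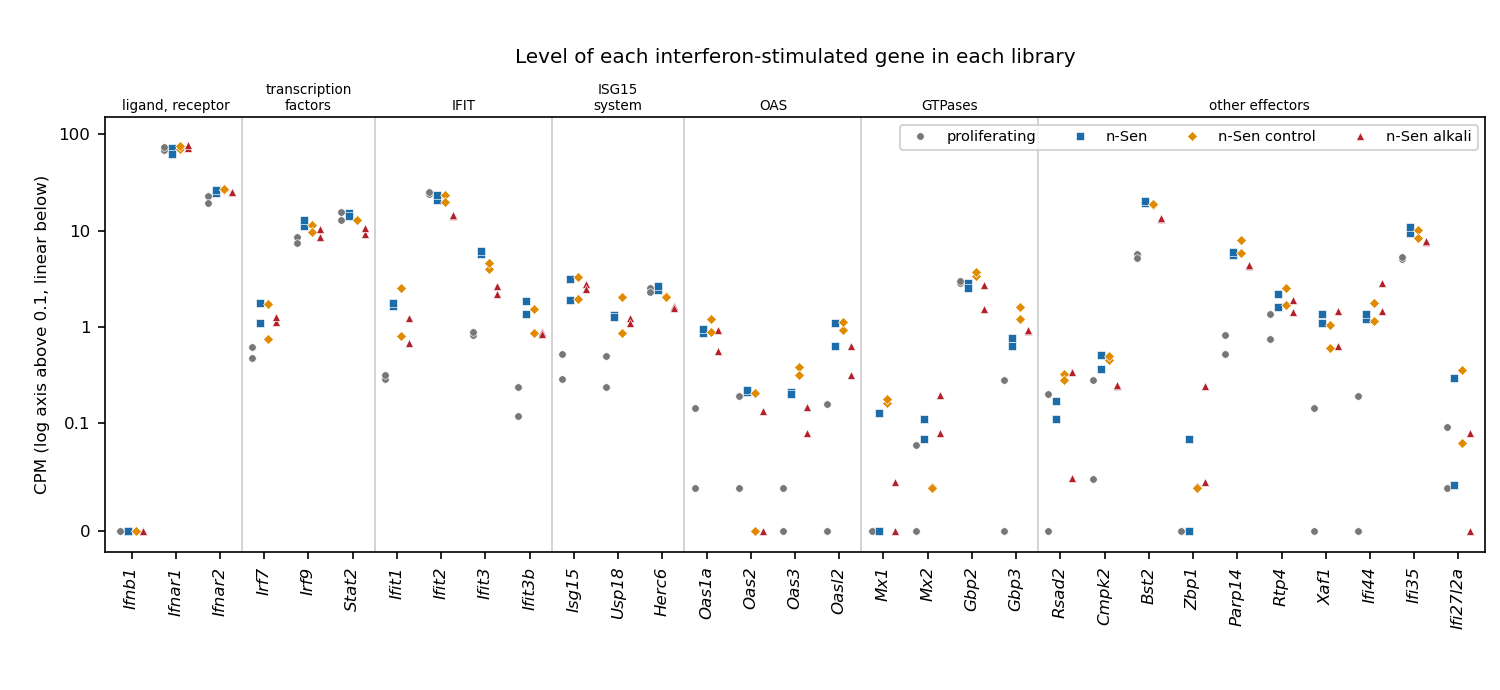
Level of each of the 31 members in each library, in CPM (log axis above 0.1, linear below), ordered by role; each point is 1 library and each symbol and colour 1 of the 4 groups. Receptor genes lie at similar levels in all groups, while most effectors lie lower in proliferating cells than in the 3 n-Sen groups.

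The ligand gene Ifnb1, for interferon beta, had no count in any of the 8 libraries. A count of 0 allows up to 3 counts a library, which is between 0.0556 and 0.0737 CPM and covers counting error only. Small whole counts were mostly even in every library, so counting error may be larger and this ceiling too low. The receptor gene Ifnar1 was measured at 68.6 and 73.4 CPM in proliferating cells, 71.4 and 62.2 CPM in the n-Sen libraries, 70.9 and 75.2 CPM in control medium and 72.3 and 78.0 CPM in alkaline medium. It was not called in either comparison, with log2 fold changes of -0.08 ± 0.0716 (SE) for n-Sen against proliferating cells and 0.04 ± 0.0579 for alkaline against control medium, and its groups overlapped. Ifnar2, the other chain, stood at 23.1 and 19.5 CPM in proliferating cells, 24.7 and 26.5 CPM in the n-Sen libraries, 26.5 and 26.9 CPM in control medium and 25.4 and 25.1 CPM in alkaline medium. Its rise in n-Sen was small, at 0.28 ± 0.0979 with an edgeR adjusted p of 0.0195. That call was lost without proliferating replicate 2 (adjusted p = 0.234), without n-Sen replicate 2 (0.119), with library totals as the only scaling (0.0532) and in DESeq2 (0.0564).

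Of the 3 transcription factors 2 were called higher in n-Sen. Irf7, which amplifies the response once it has begun, had 0.627 and 0.481 CPM in proliferating cells and 1.78 and 1.11 CPM in the n-Sen libraries. In control medium it had 1.72 and 0.761 CPM and in alkaline medium 1.13 and 1.27 CPM, so the n-Sen libraries were above both proliferating ones and the alkaline values lay between the control ones. It rose by 1.39 ± 0.388 on the log2 scale in n-Sen (edgeR adjusted p = 0.00440), a call lost without n-Sen replicate 1 (0.104), and exons of Phrf1 on the other strand overlap it. Irf9, the DNA-binding subunit of ISGF3, rose by 0.60 ± 0.132 in n-Sen (edgeR adjusted p = 0.000729). Its levels were 8.54 and 7.45 CPM in proliferating cells, 11.1 and 12.8 CPM in the n-Sen libraries, 11.3 and 9.77 CPM in control medium and 8.496 and 10.4 CPM in alkaline medium. Proliferating cells and n-Sen were separate, while control and alkaline medium overlapped. Stat2, which carries the activation domain of ISGF3, was at 13.0 and 15.6 CPM in proliferating cells, 15.3 and 14.3 CPM in the n-Sen libraries, 13.0 and 12.9 CPM in control medium and 9.26 and 10.7 CPM in alkaline medium. It overlapped between proliferating cells and n-Sen (0.05 ± 0.116, not called), and both alkaline libraries were below all others.

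The IFIT genes encode proteins that bind foreign RNA and block its translation, and 3 of the 4 rose in n-Sen. Ifit3 went from 0.820 and 0.881 CPM in proliferating cells to 5.79 and 6.19 CPM in the n-Sen libraries, and was 3.96 and 4.65 CPM in control medium and 2.65 and 2.18 CPM in alkaline medium. Its log2 fold change in n-Sen was 2.82 ± 0.220 (edgeR adjusted p = 3.76e-09), and none of the 4 groups overlapped another. Ifit3b went from 0.241 and 0.120 CPM to 1.85 and 1.37 CPM (3.17 ± 0.465, edgeR adjusted p = 1.08e-05), with 0.861 and 1.52 CPM in control medium and 0.884 and 0.840 CPM in alkaline medium. The 2 genes are near-copies: 51.2% of the stretches of 50 bases in Ifit3 transcripts also occur in those of Ifit3b, and both carry fractional counts, so how reads were divided between them is uncertain. Their sum is free of that and was 1.062 and 1.001 CPM in proliferating cells, 7.64 and 7.56 CPM in the n-Sen libraries, 4.82 and 6.17 CPM in control medium and 3.54 and 3.02 CPM in alkaline medium. Ifit1 had 0.290 and 0.321 CPM in proliferating cells, 1.65 and 1.80 CPM in the n-Sen libraries, 2.54 and 0.801 CPM in control medium and 1.23 and 0.681 CPM in alkaline medium, a rise in n-Sen of 2.49 ± 0.384 (edgeR adjusted p = 1.88e-05). Ifit2 was the exception, abundant already in proliferating cells at 24.3 and 25.3 CPM and no higher in n-Sen at 21.0 and 23.3 CPM (-0.15 ± 0.0924, not called). It had 23.2 and 19.9 CPM in control medium and 14.1 and 14.5 CPM in alkaline medium, where both libraries were below the other 6.

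Isg15, a ubiquitin-like protein that is joined to other proteins, and Usp18, the protease that removes it and damps the receptor, both rose. Isg15 had 0.290 and 0.521 CPM in proliferating cells, 1.91 and 3.13 CPM in the n-Sen libraries, 1.97 and 3.28 CPM in control medium and 2.80 and 2.50 CPM in alkaline medium. It rose by 2.62 ± 0.373 in n-Sen (edgeR adjusted p = 7.66e-06) and the alkaline values lay between those in control medium. Usp18 had 0.241 and 0.501 CPM in proliferating cells and 1.33 and 1.26 CPM in the n-Sen libraries, with 0.861 and 2.04 CPM in control medium and 1.23 and 1.09 CPM in alkaline medium. Its rise was 1.78 ± 0.432 (edgeR adjusted p = 0.00154), and 2.42 without proliferating replicate 2. Herc6, the mouse ligase that joins Isg15 to its targets, was not called at 2.56 and 2.30 CPM in proliferating cells and 2.40 and 2.67 CPM in the n-Sen libraries. It had 2.09 and 2.04 CPM in control medium and 1.67 and 1.59 CPM in alkaline medium, 2 groups that did not overlap but did not pass the test either (-0.35 ± 0.258).

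The OAS genes make or resemble enzymes that sense double-stranded RNA and activate RNase L. Oas1a had 0.145 and 0.0401 CPM in proliferating cells, 0.858 and 0.963 CPM in the n-Sen libraries, 1.21 and 0.881 CPM in control medium and 0.565 and 0.931 CPM in alkaline medium. Oasl2 had 0 and 0.160 CPM in proliferating cells, 0.644 and 1.11 CPM in the n-Sen libraries, 0.923 and 1.12 CPM in control medium and 0.638 and 0.318 CPM in alkaline medium. Both rose in n-Sen, by 3.33 ± 0.636 and 3.33 ± 0.754 (edgeR adjusted p = 0.000176 and 0.000853), on at most 8 counts a proliferating library. Those sizes rest on single libraries: Oas1a ranged from 2.64 without proliferating replicate 2 to 4.44 without proliferating replicate 1, and Oasl2 from 2.45 without proliferating replicate 1 to 8.39 without proliferating replicate 2, the last fitted against a library with no count and so no bound. Of the 50-base stretches of Oas1a, 57.6% also occur in Oas1g. Oas2, with at most 12 counts in a library, was not called (0.96 ± 0.818), and Oas3, with 0 and 2 counts in proliferating cells and 10 and 11 for n-Sen, was not tested.

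Of the interferon-induced GTPases 2 were tested and 1 was called higher. Gbp2, which binds membranes of intracellular pathogens, was not called in n-Sen. It had 2.90 and 3.00 CPM in proliferating cells, 2.83 and 2.52 CPM in the n-Sen libraries, 3.43 and 3.71 CPM in control medium and 1.55 and 2.75 CPM in alkaline medium (-0.13 ± 0.214 for n-Sen, not called). Gbp3, its neighbour on chromosome 3, had 0 and 0.280 CPM in proliferating cells, 0.644 and 0.778 CPM in the n-Sen libraries, 1.21 and 1.60 CPM in control medium and 0.909 and 0.931 CPM in alkaline medium. It was called higher in n-Sen (2.25 ± 0.756, edgeR adjusted p = 0.0146), but not without proliferating replicate 1 (1.35, adjusted p = 0.0728), without n-Sen replicate 2 (0.0729) or in DESeq2 (0.0578). Without proliferating replicate 2 the value was 8.08, fitted against a library with no Gbp3 count, so it depends on the prior count and is no bound. Mx proteins trap viral nucleocapsids, and the annotation used here lists Mx2 as a polymorphic pseudogene and not as protein-coding. Mx1 and Mx2 had at most 9 and 8 counts in any library and were not tested.

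Of the 10 other effectors 7 were tested and 6 were called higher. Bst2, or tetherin, which holds budding virus at the cell surface, had 5.67 and 5.27 CPM in proliferating cells, 19.4 and 20.4 CPM in the n-Sen libraries, 18.6 and 19.1 CPM in control medium and 13.2 and 13.7 CPM in alkaline medium. It rose by 1.88 ± 0.120 in n-Sen (edgeR adjusted p = 2.41e-10), and the control and alkaline libraries did not overlap either. Parp14, an ADP-ribosyltransferase, rose by 3.14 ± 0.248 (edgeR adjusted p = 4.40e-09), from 0.820 and 0.521 CPM to 5.621 and 6.001 CPM, with 7.92 and 5.81 CPM in control medium and 4.30 and 4.45 CPM in alkaline medium. Ifi35 went from 5.14 and 5.33 CPM to 9.40 and 11 CPM, a rise of 0.97 ± 0.145 (edgeR adjusted p = 1.27e-05), and had 10.2 and 8.37 CPM in control medium and 7.71 and 7.77 CPM in alkaline medium. For each of the 3, both proliferating libraries were below all 6 others.

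Xaf1, a pro-apoptotic partner of XIAP, had 0.145 and 0 CPM in proliferating cells, 1.09 and 1.37 CPM in the n-Sen libraries, 1.05 and 0.601 CPM in control medium and 0.638 and 1.45 CPM in alkaline medium. Ifi44 had 0.193 and 0 CPM in proliferating cells, 1.20 and 1.37 CPM in the n-Sen libraries, 1.76 and 1.16 CPM in control medium and 1.47 and 2.84 CPM in alkaline medium. Their fitted rises were 4.17 ± 0.713 and 3.82 ± 0.697 (edgeR adjusted p = 5.88e-05 and 0.000114), over 6 and 8 counts in the proliferating libraries together. The values were 3.08 and 2.73 without proliferating replicate 2, which has no count of either, and 8.96 and 9.02 without proliferating replicate 1, again no bounds, and DESeq2 did not call Ifi44 (0.110). Rtp4, a receptor chaperone that also restrains viruses, had 0.748 and 1.38 CPM in proliferating cells, 1.63 and 2.22 CPM in the n-Sen libraries, 1.68 and 2.52 CPM in control medium and 1.89 and 1.43 CPM in alkaline medium. It rose by 0.85 ± 0.330 (edgeR adjusted p = 0.0310), but did not pass without proliferating replicate 1 (0.191), without n-Sen replicate 2 (0.227) or in DESeq2 (0.132).

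The remaining members were low throughout. With the ligand gene, Oas2, Oas3, Mx1 and Mx2 above, 9 members stayed under a mean of 1 CPM in every group. Cmpk2, a mitochondrial nucleotide kinase next to Rsad2 on chromosome 12, had 128 counts over all 8 libraries and was not called in n-Sen (1.36 ± 0.703), except without proliferating replicate 2 (adjusted p = 0.0194). Rsad2, or viperin, which makes a chain-terminating nucleotide, had 71 counts, Ifi27l2a 50 and Zbp1, a sensor of Z-form nucleic acid, 20. These 3 were not tested in the first comparison.

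Levels can be compared between genes only per length of exon, and on that scale (mean CPM per kb, n = 2) the members spread widely. In n-Sen, Bst2 was at 22.0, Ifnar1 at 11.3, Ifnar2 at 7.68, Ifi35 at 5.91, Ifit2 at 5.63, Ifit3 at 3.43 and Isg15 at 3.33. In proliferating cells the order began with Ifnar1 at 12.0, Ifnar2 at 6.40, Ifit2 at 6.31 and Bst2 at 6.06, and Ifit3 and Isg15 were at 0.488 and 0.536. Among the members with a level given here and their neighbours in the order, some did not differ beyond the spread of their libraries. In n-Sen these were Ifi35 and Ifit2, and Isg15 also overlapped both Ifit3 and Stat2. In proliferating cells they were Ifnar2, Ifit2 and Bst2, and Isg15, Rtp4 and Ifit3. Further down the order other neighbours overlapped too, Gbp2 and Rtp4 in n-Sen among them. Bst2 lay above all other members in both n-Sen libraries and below Ifnar1 in both proliferating ones.

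**Figure D2:**
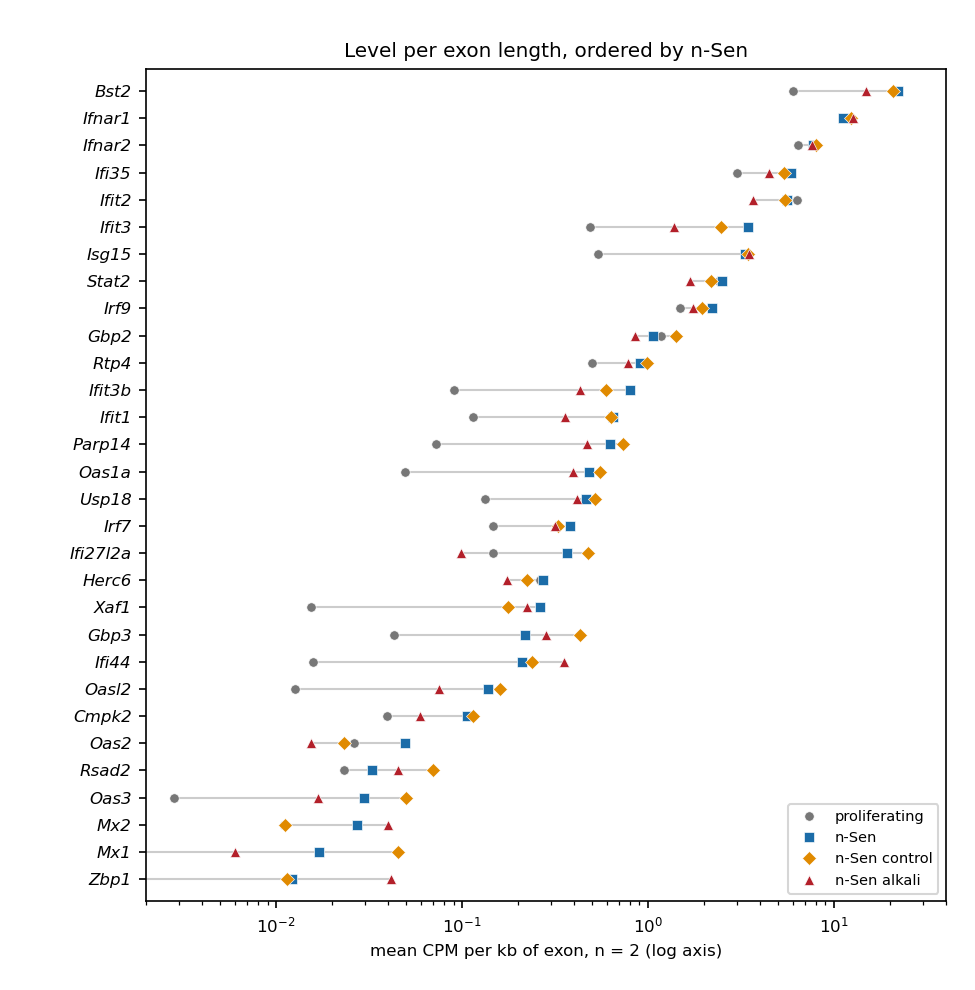
Mean level of each member per kb of exon in each of the 4 groups (n = 2, log axis), ordered by the n-Sen level; Ifnb1, at 0 throughout, is left out, and a group at 0 has no point. Bst2 leads in all n-Sen groups, and proliferating cells lie far to the left for the IFIT, OAS and Isg15 genes that rose but not for Ifit2, Stat2 or the receptor genes.

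The second comparison, alkaline against control medium, is the one the series' design names: it asks what an alkaline setting does to the transcripts of senescent cells. Of 25 members tested, 6 were called lower and none higher (edgeR's quasi-likelihood test, Benjamini-Hochberg adjustment over 19129 genes). Over all genes, 10.4% were called lower and 9.58% higher. At an unadjusted p under 0.05 there were 8 lower and 0 higher members, and DESeq2 called 4 lower and 0 higher, with no adjusted p for 8. The median log2 fold change of the tested members was -0.47, against -0.009 over all genes, and 21 of the 25 fitted values were negative. Oas3 and Rsad2, both among the 21, passed the filter on low counts only through the control libraries, so these figures describe the set without supporting a direction. The 6 were Ifit2, Ifit3, Bst2, Parp14, Gbp2 and Stat2, and for each of them both alkaline libraries were below both control ones. The same held for Herc6, Oasl2 and Ifi35, which were not called. How many of all genes were separated in this way was not counted, so this adds no support to the calls. All 6 called are effectors or ISGF3 parts, and neither receptor gene was called. Ifit3, Bst2 and Parp14 were also called higher in n-Sen than in proliferating cells, while Ifit2, Gbp2 and Stat2 were not.

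Ifit3 had a log2 fold change of -0.84 ± 0.200 (edgeR adjusted p = 0.00372). Ifit2 fell by 0.59 on the log2 scale (SE 0.0988, edgeR adjusted p = 9.73e-05) and Bst2 by 0.49 (SE 0.0973, edgeR adjusted p = 0.000678). These 3 calls held in all 12 alternatives computed. Parp14 had a change of -0.65 ± 0.167 (edgeR adjusted p = 0.00635), which did not pass without n-Sen control replicate 1 (0.168), the library with the highest Parp14 level. For Gbp2 the change was -0.73 ± 0.237 (edgeR adjusted p = 0.0319). It did not pass without n-Sen alkali replicate 1 (0.345), without n-Sen control replicate 2 (0.0721) or in DESeq2 (0.162). Stat2 had a change of -0.37 ± 0.115 (edgeR adjusted p = 0.0232). It did not pass without either control library (0.0653 without replicate 1 and 0.0617 without replicate 2), without n-Sen alkali replicate 1 (0.193) or in DESeq2 (0.112).

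Of the 19 members tested and not called, Isg15 had a change of 0.01 ± 0.243, Irf7 of -0.05 ± 0.369 and Irf9 of -0.16 ± 0.129. The OAS genes had larger negative values with wide errors, -1.56 ± 0.741 for Oas3 and -1.10 ± 0.458 for Oasl2, and Oas1a had -0.48 ± 0.403. Ifit1 had -0.81 ± 0.423, with control libraries that differed from each other by more than the group means. It passed without n-Sen control replicate 2 (adjusted p = 0.00125) or without n-Sen alkali replicate 1 (0.0189), and its sign turned without n-Sen control replicate 1 (0.24, not called). Oasl2 also passed without n-Sen alkali replicate 1 (0.0328). Xaf1 (0.35 ± 0.429) and Ifi44 (0.56 ± 0.310) had positive values, and Ifi44 passed as higher without n-Sen alkali replicate 1 (adjusted p = 0.0176). Ifit3b, the copy of Ifit3, had -0.47 ± 0.378.

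**Figure D3:**
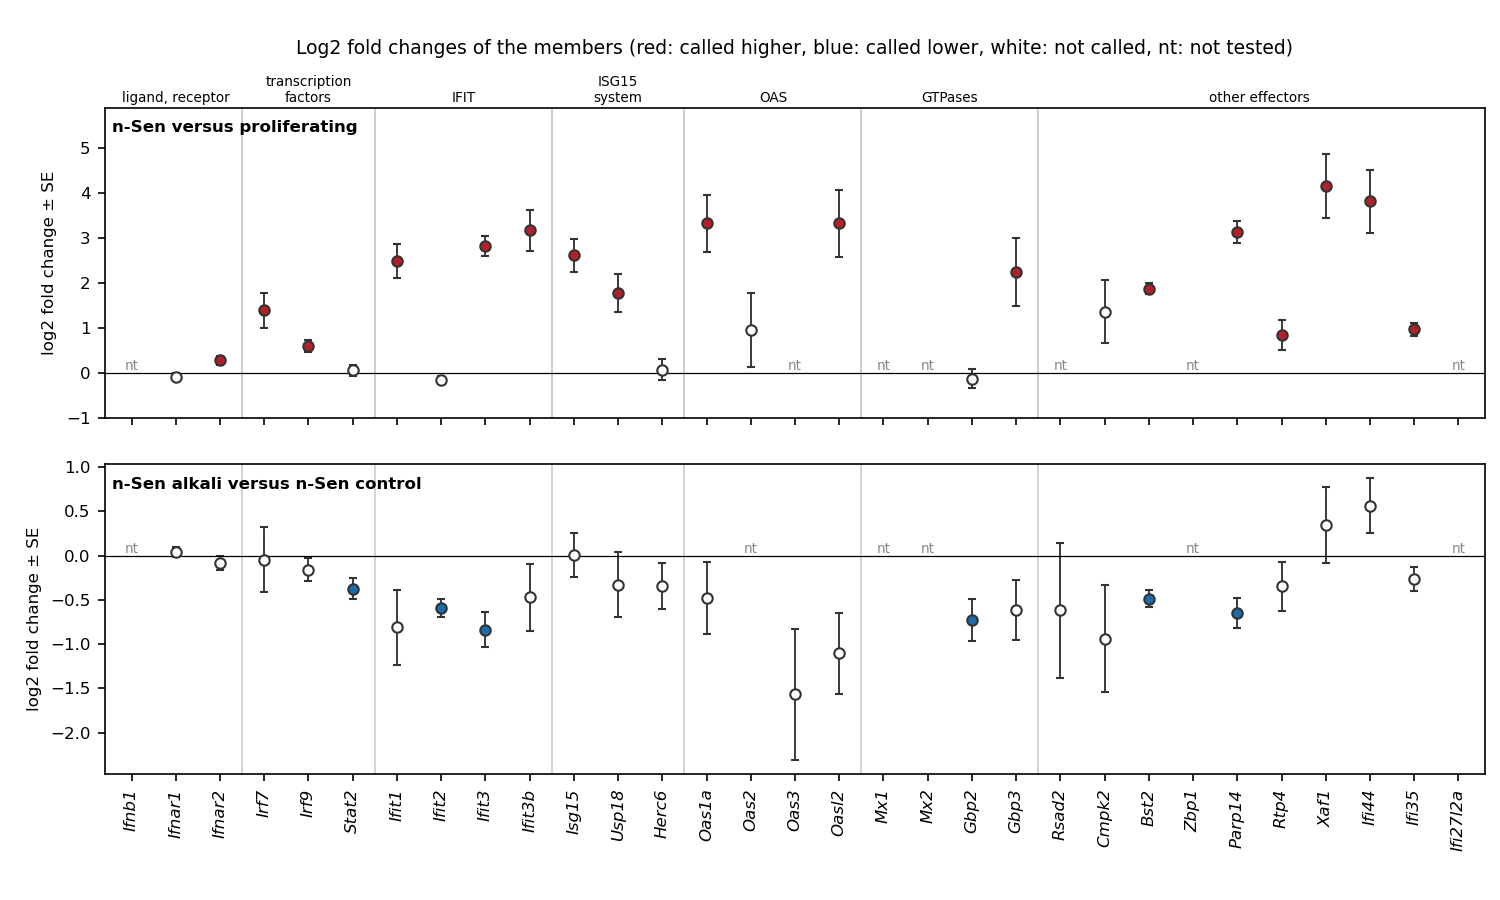
Log2 fold change of each member (± SE, edgeR fits of 2 libraries a group) for n-Sen against proliferating cells (top) and alkaline against control medium (bottom), on separate vertical scales. In the top panel 17 members are called higher, and in the bottom panel 6 are called lower and the other tested members are not called.

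Macrophage markers moved with this comparison too, by less. Of the 19 tested, 10 were called lower and 9 not called, with a median log2 fold change of -0.27, and their sum was 1346 and 1428 CPM in control medium against 1244 and 1257 CPM in alkaline medium. Of all genes tested, 10.4% were called lower and 9.58% higher, with a median log2 fold change of -0.009. The 28 members other than the ligand and receptor genes summed to 111 and 104 CPM in control medium and 77.3 and 83.5 CPM in alkaline medium. In proliferating cells and n-Sen the same sums were 67.0 and 70.1, and 109 and 117 CPM. Abundant macrophage genes were on both sides. Lyz2 (log2 fold change -0.06), Mpeg1 (-0.14) and Ctss (0.08) were not called. Csf1r (-0.295), C1qa (-0.222), C1qb (-0.317), C1qc (-0.342), Laptm5 (-0.232) and Adgre1 (-0.58) were called lower, as was the less abundant Mrc1 (-1.43). Of the 10 fibroblast markers 7 were called lower and 3 higher, with a median of -0.38 and a higher sum in alkaline medium, 18380 and 18410 CPM against 15930 and 17250 CPM. The part of these cells in the members' change was not tested.

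**Figure D4:**
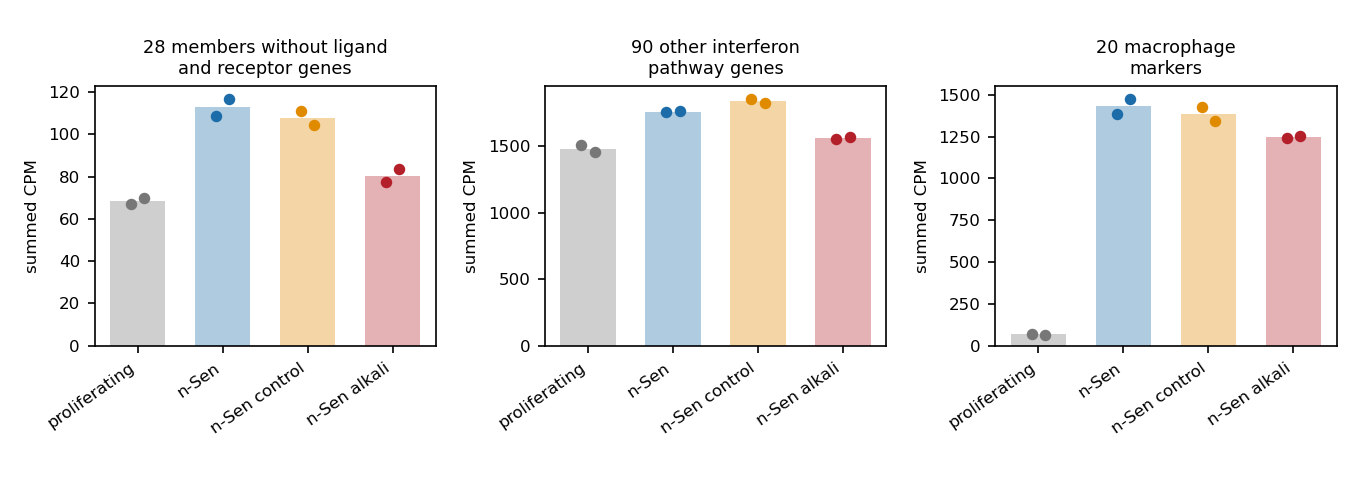
Summed CPM in each library (points) and group mean (bars, n = 2) of the 28 members other than ligand and receptor genes, of 90 other interferon pathway genes and of 20 macrophage markers. The members' sum is lowest in proliferating cells and next lowest in alkaline medium, and the macrophage sum is at least 1244 CPM in all 3 n-Sen groups and at most 71.3 CPM in proliferating cells.

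A list of 90 other interferon pathway genes, sensors, signalling parts and further induced genes, was taken beside the members. In n-Sen against proliferating cells 47 of its 76 tested genes were called higher, 11 lower and 18 not, with a median log2 fold change of 0.66. Over all genes tested, 34.0% were called higher and 33.1% lower, with a median of 0.001. Some genes of this list entered the test through their n-Sen level. Ifnlr1 had 0.121 and 0 CPM in proliferating cells and 1.48 and 1.28 CPM in n-Sen, and Sp110 had 0 and 0.0801, and 1.20 and 1.11 CPM. The counts and the median therefore describe the list without supporting a direction. Lgals3bp, a secreted galectin-3 ligand, rose from 6.83 and 6.27 CPM to 34.95 and 35.60 CPM, a change of 2.44 ± 0.101. The peptide transporter gene Tap1 (2.88 ± 0.160) and Ifi27 (2.65 ± 0.150) rose as well, with n-Sen libraries above proliferating ones. Among those that fell, Slfn9 went from 18.5 and 18.9 CPM to 1.48 and 1.32 CPM. The dNTP hydrolase gene Samhd1 went from 128 and 122 CPM to 65.1 and 65.5 CPM, and Plscr1, a phospholipid scramblase, had a change of -1.42 ± 0.107. Irf3, the factor that switches on the interferon beta gene, was not called (-0.16 ± 0.0826).

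With alkaline medium 21 of 81 tested genes of that list were called lower, 1 higher and 59 not, with a median of -0.28. Over all genes tested, 10.4% were called lower and 9.58% higher, with a median of -0.009. Here too some genes passed the filter on low counts only through the control libraries. Epsti1, called lower, had 0.943 and 0.721 CPM in control medium and 0.0982 and 0.273 CPM in alkaline medium. These figures describe the list without supporting a direction. Ifitm3, which blocks viral fusion, went from 85.9 and 78.6 CPM in control medium to 54.9 and 57.9 CPM (-0.55 ± 0.0594). The RNA sensor gene Ddx58 went from 29.7 and 26.8 CPM to 17.0 and 15.9 CPM (-0.78 ± 0.0896), and the large ubiquitin ligase gene Rnf213 from 48.1 and 52.1 CPM to 29.7 and 34.8 CPM (-0.64 ± 0.0756). Ifi30, a lysosomal thiol reductase, was the 1 called higher, from 18.3 and 18.1 CPM to 24.3 and 23.7 CPM. Irf3 was not called (-0.14 ± 0.0774, edgeR adjusted p = 0.222).

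The n-Sen control and n-Sen groups, both senescent, stand in different tables, so table and medium cannot be told apart, and they share their libraries with the comparisons above. Of 27 members tested, 0 were called higher and 0 lower in a fit of all 8 libraries with edgeR's quasi-likelihood test. Over all 20215 genes, 6.18% were called higher and 4.96% lower. At an unadjusted p under 0.05 there were 0 higher and 1 lower, Ifit3 (-0.47 ± 0.179), and DESeq2 called 0 in either direction, with no adjusted p for 12 members. The median of the members was 0.07, against 0 over all genes. Of the 82 tested genes of the other list, 4 were called higher, led by Jak1 (0.28 ± 0.0433), Ifi30 (0.59 ± 0.0984) and Irf1 (0.47 ± 0.131), and 4 lower, led by Samhd1 (-0.43 ± 0.0587), Pml (-0.29 ± 0.0614) and Trim25 (-0.34 ± 0.0860). Of 19 macrophage markers 1 was called lower and 18 were not called.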

How the data were processed

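Per the labels' protocols, polyadenylated RNA was made into strand-marked (dUTP) libraries. Per the submitters' processing notes, HISAT2 2.1.0, fastp 0.23.2, Subread 2.0.2 with featureCounts, DESeq2 1.34.0 and mm10 were used. The strand setting and annotation release are not given in the sources used here. Overlapping genes may share reads: exons of 4 members overlap a gene on the other strand and exons of 5 a gene on their own strand. The authors deposited expected counts, estimated counts that need not be whole, in 2 tables of 54838 genes. Among whole counts of 1 to 20, between 67.5% and 69.1% were even in each library, so counting error may be larger than the counts imply, and a fit of halved counts was added after seeing this.

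Counts were rounded, filtered with filterByExpr (minimum count 10), scaled by TMM and tested with edgeR 4.0.16 in R 4.3.3 (adjusted p under 0.05), in 1 fit per table and 1 of all 8 libraries. CPM in the text used TMM over all 8 libraries, so ratios can differ slightly from fitted fold changes. Within groups, the chi-square of paired libraries divided by its degrees of freedom lay between 4.63 and 7.39, more than sampling noise gives. The procedure was tested on simulated data. DESeq2 1.42.0 was an alternative.

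The members, gene lists and tests were chosen with earlier results of these data known. All members are accounted for: those called in a comparison within a table that reached 1 CPM in a group are given in every library, and lower ones by counts. Of the other list, the 3 of smallest p per direction and Irf3 are named, and 1 further gene of that rule is not reported here. Symbols and exon lengths came from GENCODE vM21 and promoters from RefSeq, which held 23 of the 31 members.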

Additional observations from a re-analysis of the deposited data

How the results depend on the processing

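Each count and member value was recomputed with size factors by relative log expression, with library totals alone, in DESeq2, without a filter, with truncated or halved counts, with another set of libraries in the fit, with a replicate block and with each library left out. No called value changed sign. With all genes, library totals alone gave 47.6% of called genes as higher in n-Sen where TMM gave 50.7%, and 42.7% against 47.9% in alkaline medium. For n-Sen against proliferating cells the members called higher ranged from 13 (DESeq2) to 18 over these settings, and 12 of the 17 calls (Irf9, Ifit1, Ifit3, Ifit3b, Isg15, Usp18, Oas1a, Oasl2, Bst2, Parp14, Xaf1 and Ifi35) held in every one that gave an adjusted p. For alkaline against control medium the members called lower ranged from 4 to 6, and those called higher from 0 to 1 when a library was left out. For control medium against n-Sen, the other interferon pathway genes called higher were 2 in DESeq2 and between 2 and 5 with a library left out, and those called lower between 2 and 4. Same-numbered libraries of the groups did not deviate together (correlations of -0.014, -0.006 and -0.004 over 15231 genes). No pairing by number was detected. These values cannot tell whether the libraries were paired, because the spread within groups may be technical. With the replicate block 17 members were called higher in n-Sen than in proliferating cells and 6 lower in alkaline medium, as without it, and no member's call changed. Depth limits the 9 members under 1 CPM, where a few counts decide the value. Among called members it also limits Oasl2, Gbp3, Xaf1 and Ifi44, whose log2 fold changes moved most when a proliferating library was left out. Of the calls that held, those of Ifit3b, Oas1a, Oasl2 and Xaf1 are for members that entered the test through their n-Sen level. That they held does not support a direction.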
